A study of Mus musculus with 2 samples.

Results

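The genes described here encode 7 proteins that adipose tissue releases or is known to release: leptin (Lep), adiponectin (Adipoq), resistin (Retn), retinol-binding protein 4 (Rbp4), neuregulin 4 (Nrg4), angiopoietin-like 4 (Angptl4) and apelin (Apln). They were chosen by name, and all 7 were found among the 31053 genes of both count tables. Single-nucleus RNA-Seq (snRNA-Seq) counts the RNA molecules of single nuclei caught in droplets, each molecule marked by a unique molecular identifier (UMI). The nuclei were those of inguinal white adipose tissue (iWAT), the fat under the skin of the groin, of male C57BL/6 mice fed a Western diet for 4 weeks, with the lymph node taken out and the tissue of 3 mice pooled per group. There was 1 library of genotype Lexis WT and 1 of genotype Lexis KO. Lexis is a long noncoding RNA. The study deleted it with a floxed allele and Adipoq-cre, in which the promoter of Adipoq, itself among the 7 genes, drives the recombinase. The controls (Lexis-AdWT) were littermates that carried the same fl/fl allele without Cre, so no group here carries Cre alone. The study states a general age for most of its mice and none for these by themselves. The comparison asks how loss of Lexis in adipocytes bears on the cells of this depot. With 1 library per genotype there were no replicates, no test was made, and every interval below is at the 95% level and covers counting error only.

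For both libraries the deposited file names give the opposite genotype to the sample labels, and Lexis itself was not analysed here. So they are called the WT-labelled library and the KO-labelled library, and each direction holds for the labels as given. If the file names were right instead, every direction between the genotypes would reverse and each ratio below would become its inverse, so that Angptl4 would have the highest and Nrg4 the lowest. After filtering, 3503 nuclei with a median of 1195 UMIs were kept in the WT-labelled library and 2852 nuclei with a median of 3879 UMIs in the KO-labelled library, and 10 of the kept barcodes occurred in both. Clusters were named from marker lists that left out the 7 genes. Adipocyte-like nuclei (adipocytes below) numbered 418 with 1952968 UMIs in the WT-labelled library and 894 with 8642341 UMIs in the KO-labelled library. Different clusters held them, cluster 4 in the WT-labelled library and cluster 1 in the KO-labelled library. Myeloid nuclei also lay mainly in different clusters, cluster 7 in the WT-labelled library and clusters 3 and 9 in the KO-labelled library. So did lymphocytes, with clusters 0, 2 and 13 in the WT-labelled library and clusters 14 and 17 in the KO-labelled library. The 10 adipocyte markers summed to 14122 and 13991 CPM (counts per 1000000 UMIs of the class) in adipocytes and to 664.5 and 961.4 CPM in lymphocytes. The 12 lymphocyte markers, none at 0, summed to 317.5 CPM in adipocytes of the WT-labelled library and 17.4 CPM in those of the KO-labelled library. The 10 ASPC markers (ASPCs are adipogenic stem and precursor cells, here with fibroblasts), none at 0, summed to 1094 and 481.7 CPM in adipocytes, lower in the KO-labelled library as Angptl4 was. Their part in the differences below was not tested. Lymphocytes made up 60.2% of the WT-labelled library and 3.86% of the KO-labelled library.

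Adipocytes act as endocrine cells as well as fat stores. Leptin reports the size of fat stores to the brain and restrains feeding. Adiponectin raises insulin sensitivity, and resistin and retinol-binding protein 4 have been tied to insulin resistance in mice. Neuregulin 4 is an epidermal growth factor family ligand made mostly by thermogenic fat that acts through ErbB receptors. Angiopoietin-like 4 inhibits lipoprotein lipase, the enzyme that frees fatty acids from circulating triglycerides, and is a target of the nuclear receptor PPARγ. Apelin is a peptide ligand for a receptor on vessels and heart. CPM values are not divided by gene length, so levels are compared within a gene and not between genes.

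Promoters of Lep and Adipoq are shown because these genes, both known as adipocyte hormones, stood in opposite order between the adipocyte clusters described below. The sequences are the 100 bases before the start site in RefSeq's GRCm38.p6, the assembly that mm10 is, 5′ to 3′ on the gene's strand. The Lep stretch is chr6:29060121-29060220 (plus strand) and the Adipoq stretch is chr16:23146436-23146535 (plus strand). Capitals mark matches to any of 4 motifs searched on both strands.
Lep: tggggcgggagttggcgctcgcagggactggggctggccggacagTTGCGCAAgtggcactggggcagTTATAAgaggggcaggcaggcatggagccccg
Adipoq: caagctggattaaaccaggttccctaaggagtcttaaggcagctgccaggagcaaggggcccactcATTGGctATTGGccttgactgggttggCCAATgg
The motifs were the C/EBP palindrome TTGCGCAA, the TATA element TATAA, the CCAAT box CCAAT and the PPAR-type direct repeat 1 (named only). The Lep palindrome lay 55 to 48 bases before the start, and the overlapping TATAA and TTATA 32 to 27 bases before it. The palindrome was present in 0.183% of all 32851 RefSeq windows of 300 bases, the TATA element in 24.9% and the CCAAT box in 37.4%. Within the 100 bases before the start alone these shares were 0.067%, 10.2% and 18.9%. Adipoq held 3 CCAAT-box matches (CCAAT or, on the other strand, ATTGG) and none of the other motifs. Promoter windows were given for 6 of the 7 genes, Angptl4 being the exception. The Lep window alone held the palindrome, 1 of 2 Rbp4 windows held the TATA element, 1 of 2 held the CCAAT box, and the Nrg4, Retn and Apln windows held none of the 4. The direct repeat, found in 0.0396% of all windows, was in none of them. These are matches of letters and say nothing of binding.

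In adipocytes, Lep and Nrg4 were higher in the KO-labelled library, Angptl4 was lower, and Adipoq and Retn lay close to a ratio of 1. Of the 6 genes with at least 50 adipocyte UMIs, 2 (Lep and Nrg4) reached a ratio of labelled KO over labelled WT of at least 2, beside 25.9% of all 11351 genes with as many UMIs. One gene, Angptl4, was at 0.5 or below, beside 17.6% of all genes. Their log2 ratios had a median of 0.39, and those of all genes one of −0.01. Counts this small are near those shares and do not set these genes apart from other genes. Ranked among all 11351 genes, the Nrg4 ratio was higher than 90.2% of ratios, Lep higher than 79.8%, Rbp4 higher than 67.7%, Retn higher than 53.6%, Adipoq higher than 48.4% and Angptl4 higher than 8.22%.

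**Figure D1:**
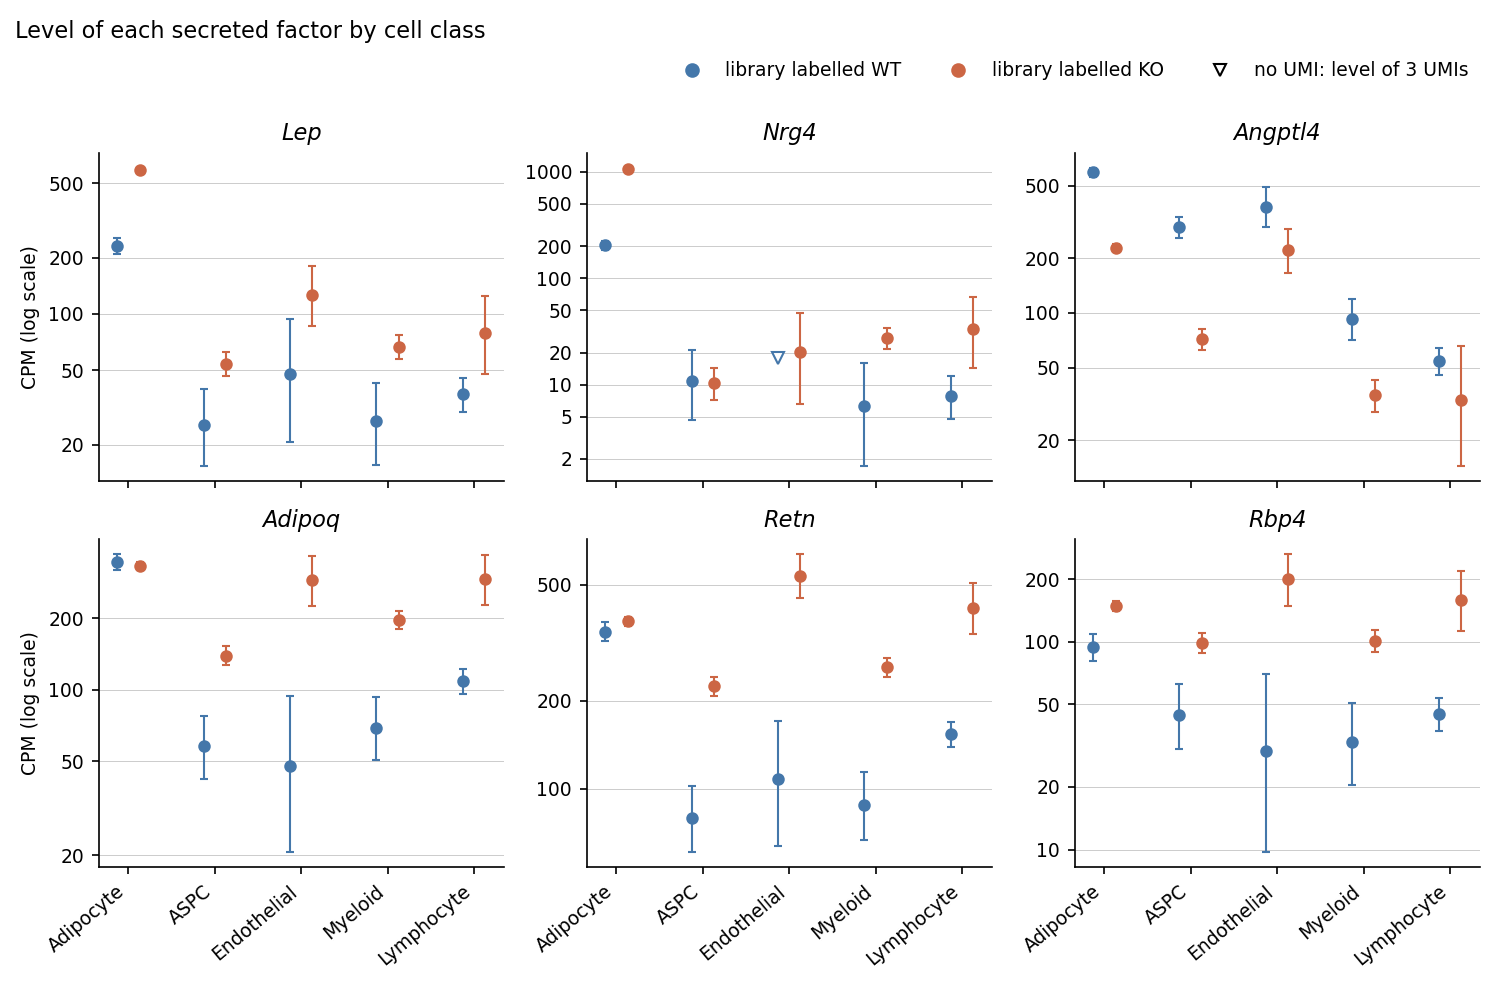
CPM (log axis) of 6 secreted factors in 5 cell classes of the WT-labelled library (blue) and the KO-labelled library (orange), with exact Poisson 95% intervals. An open triangle marks a class with no UMI, drawn at the level of 3 UMIs. Lep and Nrg4 stand above all other classes in adipocytes of both libraries, and Adipoq, Retn and Rbp4 of the KO-labelled library reach adipocyte levels in lymphocytes and endothelial nuclei.

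Nrg4 (ENSMUSG00000032311, chr9:55220222-55283654, minus strand) showed the largest ratio of the 6 genes by CPM, though not relative to genes of like intronic length, where Lep was higher (3.81 against 2.62). Adipocytes held 399 UMIs (204.3 CPM, interval 184.7 to 225.4) in the WT-labelled library and 9254 UMIs (1071 CPM, interval 1049 to 1093) in the KO-labelled library, a ratio of 5.24 (interval 4.74 to 5.81). Nearly all of its RNA lay in adipocytes, with 92.4% of the 432 Nrg4 UMIs of the kept nuclei in the WT-labelled library and 98.7% of 9380 in the KO-labelled library. In lymphocytes, taken here as the measure of free RNA, it had 7.75 CPM and 33.4 CPM, so that adipocytes exceeded them by 26.4 times (interval 16.8 to 43.6) and 32 times (interval 16.2 to 74.2). After each nucleus was thinned to 1000 UMIs, a Nrg4 UMI was found in 22.3% of 408 adipocytes (interval 18.4 to 26.7) of the WT-labelled library and 62.5% of 889 (interval 59.3 to 65.7) of the KO-labelled library. The shares were 0.461% and 3.16% in lymphocytes. Without thinning, the adipocyte shares were 50% and 95.3%, at median depths of 3652 and 7848 UMIs.

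The size of the Nrg4 ratio depended on how gene length was treated. In adipocytes the median log2 ratio rose with intronic length over all genes, from −0.90 in genes of at most 3000 intronic bases to 1.44 in those of over 100000. Lymphocytes went the same way, from −0.79 to 1.25. The annotation that gave these lengths (GENCODE vM1, of an older build) has Nrg4 as a longer gene, with 100544 intronic bases, than the RefSeq locus printed above, which spans 63433 bases in all. The 200 genes closest to the longer value had a median log2 ratio of 1.00, and relative to them the Nrg4 ratio was 2.62 (interval 2.37 to 2.9). Among the 200 genes closest to the RefSeq span the median log2 ratio was 0.32, and the Nrg4 ratio was 4.21 (interval 3.8 to 4.66). By GENCODE vM1, Fbxo22 and Gm15625 on the other strand overlap the longer Nrg4 extent, and no overlap was found for the other 6 genes.

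Lep (ENSMUSG00000059201, chr6:29060221-29073876, plus strand) had 451 UMIs (230.9 CPM, interval 210.1 to 253.3) in adipocytes of the WT-labelled library and 5067 UMIs (586.3 CPM, interval 570.3 to 602.7) in those of the KO-labelled library. The ratio was 2.54 (interval 2.31 to 2.8). Lymphocytes had 37.2 CPM and 79.4 CPM, which adipocytes exceeded by 6.21 times (interval 4.97 to 7.82) and 7.38 times (interval 4.72 to 12.3). The Lep ratio was like that of adipocytes in each other class measured in both libraries, at 2.12 in ASPCs, 2.49 in myeloid nuclei, 2.13 in lymphocytes and 2.65 in endothelial nuclei. With the lymphocyte level per nucleus subtracted, the adipocyte ratio was 2.57. The share of adipocytes with a Lep UMI at 1000 UMIs was 19.4% (interval 15.6 to 23.5) in the WT-labelled library and 38.9% (interval 35.7 to 42.2) in the KO-labelled library, beside 3.14% and 6.32% of lymphocytes. Lep has 10304 intronic bases, genes of like length had a median log2 ratio of −0.59, and relative to these the ratio was 3.81.

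Lep UMIs were unevenly spread over nuclei. In adipocytes of the WT-labelled library the median was 0 UMIs of Lep, the highest nucleus had 14, and the top 10% of nuclei held 52.8% of all Lep UMIs. This share was 60.3% for Rbp4 and 36 to 41.4% for the other 4 measured genes. In the KO-labelled library the Lep median was 3 and the highest nucleus had 80, and the top 10% of nuclei held 41.1%. Nrg4 had a median of 8 UMIs per adipocyte and a maximum of 87 in that library, with 31.1% in the top 10% of nuclei. These are raw counts, and neither the depth of the nuclei nor the number of UMIs of a gene was held fixed. Rbp4, for one, had 184 UMIs over the 418 adipocytes of the WT-labelled library. The part of depth and sparse counts in these shares was not tested.

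Angptl4 (ENSMUSG00000002289, chr17:33774900-33781575) went the other way. Adipocytes had 1153 UMIs (590.4 CPM, interval 556.8 to 625.5) in the WT-labelled library and 1969 UMIs (227.8 CPM, interval 217.9 to 238.1) in the KO-labelled library, a ratio of 0.386 (interval 0.359 to 0.415). It was lower in other classes as well. ASPCs had 295.6 CPM and 71.4 CPM (ratio 0.241, interval 0.2 to 0.292), endothelial nuclei 382.5 CPM and 220.4 CPM (ratio 0.576, interval 0.394 to 0.841) and myeloid nuclei 92.8 CPM and 35.2 CPM (ratio 0.379, interval 0.271 to 0.534). Lymphocytes had 54.2 CPM and 33.4 CPM, the latter from 8 UMIs, with a ratio of 0.616 whose interval of 0.261 to 1.25 includes 1.

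Over adipocytes, ASPCs, endothelial and myeloid nuclei, Lep, Nrg4, Adipoq, Retn and Rbp4 reached 2 times the lymphocyte CPM in adipocytes or in no class, while Angptl4 did so in 3 of the classes of each library. In the WT-labelled library it exceeded lymphocytes by 10.9 times in adipocytes, 7.05 times (interval 5.16 to 9.54) in endothelial nuclei and 5.45 times (interval 4.39 to 6.79) in ASPCs. In the KO-labelled library the values were 6.81, 6.59 (interval 3.12 to 16) and 2.14 (interval 1.07 to 5). Different clusters held the ASPCs of each library. The main ASPC cluster of the WT-labelled library (cluster 8, 292 nuclei) had 310.9 CPM, and the clusters of the KO-labelled library had 88.1 CPM (cluster 5, 380 nuclei) and 44.8 CPM (cluster 6, 373 nuclei). At 1000 UMIs, 43.4% of adipocytes of the WT-labelled library (interval 38.5 to 48.3) and 19% of those of the KO-labelled library (interval 16.5 to 21.7) had an Angptl4 UMI, beside 4.7% and 2.11% of lymphocytes. Angptl4 has 4540 intronic bases, and genes of like length had a median log2 ratio of −0.82. Relative to these its ratio was 0.683 (interval 0.635 to 0.735), which is below 1 but no longer at or below 0.5.

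**Figure D2:**
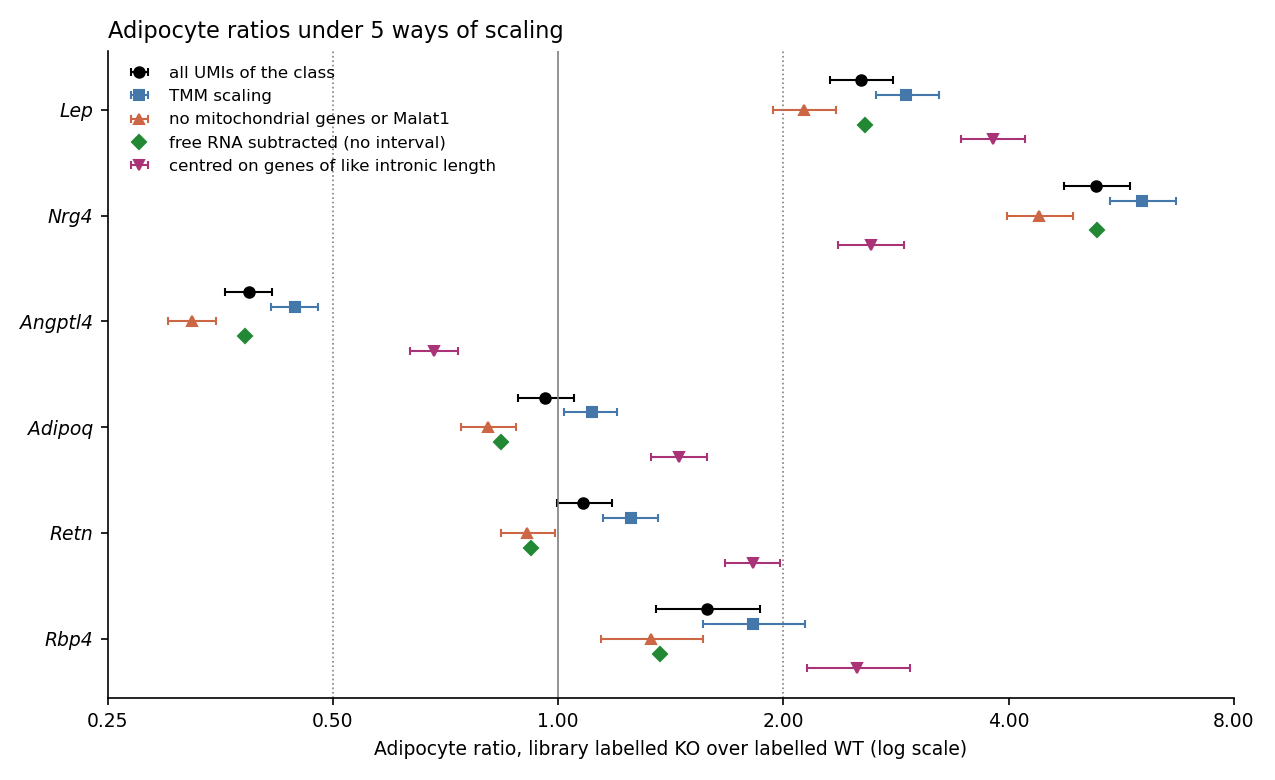
Adipocyte ratios (log axis) of 6 secreted factors, KO-labelled library over WT-labelled library, under 5 ways of scaling, with 95% counting intervals where one could be made. The solid line marks a ratio of 1 and the dotted lines mark 0.5 and 2. Lep, Nrg4 and Rbp4 stay above 1 and Angptl4 below 1 throughout, while Adipoq and Retn lie on both sides of 1.

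Adipoq (ENSMUSG00000022878, chr16:23146536-23157968, plus strand) had 678 UMIs (347.2 CPM) and 2881 UMIs (333.4 CPM) in adipocytes, a ratio of 0.96 (interval 0.883 to 1.05). Retn (ENSMUSG00000012705, chr8:3655770-3659818, plus strand) had 675 UMIs (345.6 CPM) and 3239 UMIs (374.8 CPM), a ratio of 1.08 (interval 0.998 to 1.18). Neither differed beyond counting error as scaled here. The scaling decides on which side of 1 they fall. Mitochondrial genes and Malat1 took 33.3% of adipocyte UMIs in the WT-labelled library and 20.6% in the KO-labelled library, and leaving them out of the total shifted every log2 ratio by −0.25, while TMM scaling (edgeR's trimmed mean of M-values) shifted it by 0.20. The Adipoq ratio was then 0.806 and 1.11 (interval 1.02 to 1.2), and the Retn ratio 0.91 and 1.25. Relative to genes of like intronic length the ratios were 1.45 and 1.82.

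Rbp4 (ENSMUSG00000024990, chr19:38116620-38125321, minus strand) had 184 UMIs (94.2 CPM) and 1288 UMIs (149 CPM) in adipocytes, a ratio of 1.58 (interval 1.35 to 1.86). Its share of adipocytes with a UMI at 1000 UMIs was 8.33% (interval 5.84 to 11.5) and 16.5% (interval 14.2 to 19.1), beside 4.24% and 13.7% of lymphocytes. Relative to genes of like intronic length the Rbp4 ratio was 2.51.

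Adipocytes of the KO-labelled library had more UMIs per nucleus, so the ratios were also taken within 4 bins of depth set by the WT-labelled library. The Lep ratio lay between 1.68 and 2.54 in these bins, below 2 in 2 of them (1.94, interval 1.1 to 3.38, and 1.68, interval 1.36 to 2.07), and was 2.09 with the bins weighted equally. Nrg4 lay between 3.94 and 5.93 and Angptl4 between 0.305 and 0.434, on the same side of 2 and 0.5 in every bin as over all adipocytes. The Rbp4 ratio was 2.9 and 4.25 in the 2 shallower bins and 2.13 and 1.48 in the deeper ones. Adipoq lay between 1.12 and 1.46, with intervals that included 1 in 3 of the 4 bins, and Retn between 1.19 and 1.34, with an interval that included 1 in the shallowest. Free RNA was not subtracted within these bins. Per nucleus, lymphocytes of the WT-labelled and KO-labelled libraries held 0.133 and 0.636 UMIs of Adipoq. For Retn they held 0.188 and 0.909, and for Rbp4 0.055 and 0.345. In the shallowest bin, 39 adipocytes of the KO-labelled library held 41 UMIs of Adipoq, 33 of Retn and 25 of Rbp4. The part of free RNA in the ratios of these 3 genes by bin was not tested.

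The lymphocyte level lay closer to that of adipocytes for Adipoq, Retn and Rbp4 than for Lep, Nrg4 and Angptl4. In the WT-labelled library, all 6 genes had at least 2 times the lymphocyte CPM in adipocytes, beside 14.2% of 9517 genes, with ratios of 3.2 for Adipoq, 2.25 for Retn and 2.1 for Rbp4. In the KO-labelled library, 3 of the 6 did, beside 19.7% of 10924 genes. The other 3 were Adipoq at 1.14 (interval 0.899 to 1.47), Retn at 0.897 (interval 0.735 to 1.11) and Rbp4 at 0.938 (interval 0.68 to 1.33). Shares of nuclei with a UMI at 1000 UMIs gave the same picture, with Adipoq in 31.7% of adipocytes and 30.5% of lymphocytes of the KO-labelled library, and Retn in 30.9% and 37.9%. At equal depth these shares are no higher than background within their intervals and are not read as expression. The lymphocyte ratio between the libraries was 2.7 for Adipoq, 2.72 for Retn and 3.53 for Rbp4. The lymphocytes of the KO-labelled library were 110 nuclei, mainly of clusters 14 and 17. Rbp4 was 90.8 CPM in cluster 14 (13 UMIs, interval 48.4 to 155.3) and 216.5 CPM in cluster 17 (14 UMIs, interval 118.4 to 363.3). The myocyte markers summed to 560.1 CPM in these lymphocytes and to 77.6 CPM in adipocytes of that library.

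CPM sets the count against all UMIs of a nucleus, and lymphocytes have fewer of these than adipocytes (a median of 2080 against 7848 in the KO-labelled library). Per nucleus, adipocytes of that library held 3.22 UMIs of Adipoq against 0.636 in lymphocytes, a ratio of 5.06 (interval 4 to 6.51), 3.62 of Retn against 0.909 (ratio 3.99, interval 3.27 to 4.91) and 1.44 of Rbp4 against 0.345 (ratio 4.17, interval 3.02 to 5.92). All 6 genes were at least 2 times the lymphocyte level per nucleus in both libraries. Mean UMIs per nucleus were 4672 in adipocytes and 1224 in lymphocytes of the WT-labelled library, and 9667 and 2175 in the KO-labelled library. A gene of equal CPM in both classes would therefore also pass 2. The share of all genes that did so was not taken, so this count does not set the 6 apart. In the KO-labelled library the lymphocyte level still came to 19.7% of the adipocyte level for Adipoq, 25.1% for Retn and 24% for Rbp4. Over the 6 other named classes of the KO-labelled library, Adipoq lay between 0.442 UMIs per nucleus (myocytes) and 0.651 (myeloid nuclei), and Retn between 0.859 (myeloid nuclei) and 1.08 (endothelial nuclei), a like low level in each. Rbp4 varied more, from 0.159 (mural nuclei) to 0.415 (ASPCs), and in the WT-labelled library it was 2.02 times as high per nucleus in ASPCs as in lymphocytes (interval 1.33 to 3). In the WT-labelled library the adipocyte to lymphocyte ratios per nucleus were 12.2 for Adipoq, 8.6 for Retn and 8 for Rbp4. With the lymphocyte level per nucleus subtracted in each library, the adipocyte ratios between the libraries were 0.839, 0.919 and 1.37.

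**Figure D3:**
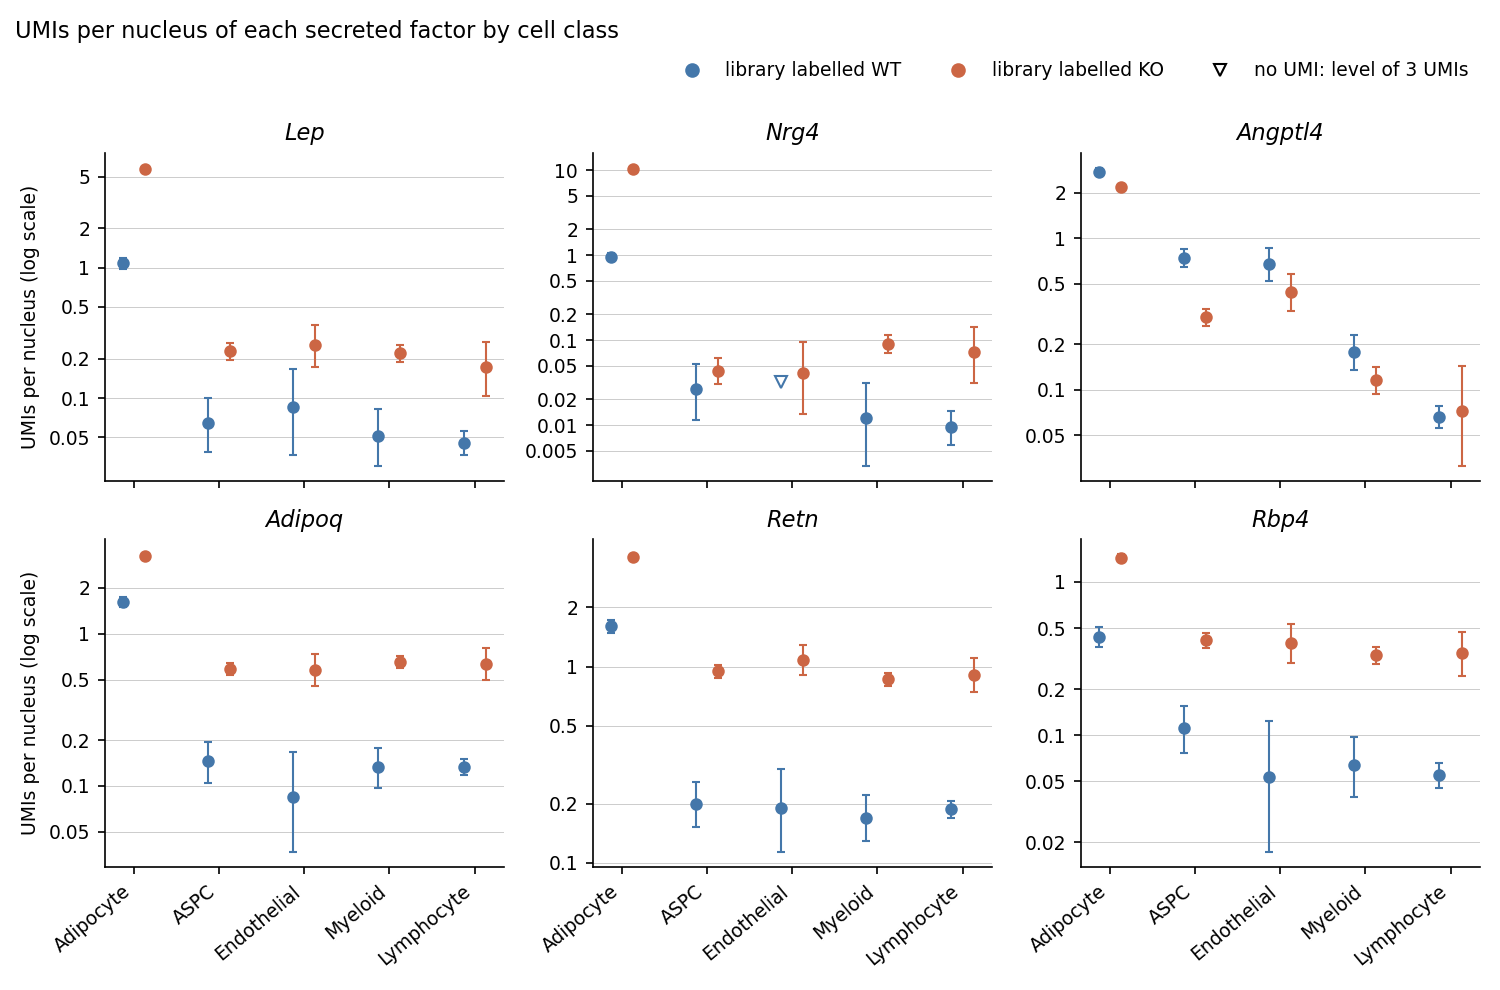
UMIs per nucleus (log axis) of 6 secreted factors in 5 cell classes of both libraries, with exact Poisson 95% intervals. Adipoq and Retn form a flat level over the 4 other classes of each library with adipocytes above it, at 3.22 UMIs of Adipoq per nucleus against 0.636 in lymphocytes of the KO-labelled library. Angptl4 stands above the lymphocyte level in ASPCs and endothelial nuclei as well.

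Apln (ENSMUSG00000037010, chrX:48025146-48034853, minus strand) was nearly absent from the counts, with 4 UMIs in all kept nuclei of the WT-labelled library and 6 in the KO-labelled library. No Apln UMI was found in adipocytes. At 1000 UMIs per nucleus, and by the limit of 3 nuclei that a count of 0 allows, 0 of 408 adipocytes allows a share with a UMI of up to 0.735% in the WT-labelled library, and 0 of 889 a share of up to 0.337% in the KO-labelled library. Of the Apln UMIs, endothelial nuclei held 1 and 5. A difference between the libraries was not detectable at this depth.

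The order of classes by CPM was read for the 6 measured genes, Apln having too few UMIs. Nrg4 and Lep were highest in adipocytes, and their CPM in ASPCs, endothelial and myeloid nuclei was below 2 times that of lymphocytes. Angptl4 was 847.9 CPM in the 10 mural nuclei of the WT-labelled library (12 UMIs, interval 438.1 to 1481), which overlapped the adipocyte interval, and lower in endothelial nuclei and then ASPCs, whose intervals overlapped. Its intervals in adipocytes (217.9 to 238.1 CPM) and endothelial nuclei (165.6 to 287.5 CPM) also overlapped in the KO-labelled library. Adipoq, Retn and Rbp4 led in adipocytes by CPM in the WT-labelled library, apart from 5 UMIs of Rbp4 in 10 mural nuclei, and did not do so clearly in the KO-labelled library, where Retn was higher in endothelial nuclei (538.7 CPM, interval 450.7 to 638.8) than in adipocytes (374.8 CPM). Per nucleus this endothelial level, 1.08 UMIs, was below the 3.62 of adipocytes.

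The genes most like each of the 6 in pattern were sought over 10 class sums (5 classes in each library, centred on each library's mean) among 10991 genes. The points share library, depth and free RNA, and the correlations are descriptions. Lipe, named below, was also among the adipocyte markers that named the classes, so its high level in adipocytes was partly set by that naming. Lep was followed by Thrsp (r = 0.986), a regulator of fatty acid synthesis, Lipe (0.984), the hormone-sensitive lipase, and Gpd1 (0.983), which makes glycerol 3-phosphate. Adipoq was followed by Bscl2 (0.970), the lipid droplet protein seipin, Pdhb (0.964) and Cyb5b (0.956). Retn was followed by Nit1 (0.979), Scd1 (0.973), a fatty acid desaturase, and Slc25a1 (0.960), the mitochondrial citrate carrier. Rbp4 was followed by Hadh (0.936), Mocs2 (0.934) and Prr32 (0.928). Nrg4 was followed by Pnpla3 (0.988), a lipid droplet protein, Als2cr12 (0.982) and Tenm4 (0.981). Angptl4 was followed by Mtus1 (0.973), Tln2 (0.967) and Fzd4 (0.966), a frizzled receptor.

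Among single adipocytes the 6 genes hardly moved together. Spearman correlations of depth-scaled levels lay between −0.06 and 0.15 over 418 nuclei of the WT-labelled library and between −0.18 and 0.15 over 894 nuclei of the KO-labelled library. The lowest values in the KO-labelled library were those of Lep with Adipoq (−0.18) and with Nrg4 (−0.16). In counts this sparse such values are weak. Depth was not held fixed in these correlations, and in the KO-labelled library the CPM of Lep rose with depth while that of Adipoq fell, as given below.

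When the KO-labelled library was clustered by itself, again without the 7 genes among the variable genes, its adipocytes formed 2 clusters that differed in Lep and Adipoq in opposite ways. Cluster 0 held 569 nuclei (median 6503 UMIs) and was led by Nnat, BB365896 and Pck1, the last a gene of glyceroneogenesis. Cluster 4 held 324 nuclei (median 12377 UMIs) and was led by Mageb18, Serpina1b and 1700047G03Rik. Lep was 395.6 CPM (interval 376.5 to 415.5) in cluster 0 and 754.2 CPM (interval 729.3 to 779.7) in cluster 4. Adipoq was 438.6 CPM (interval 418.5 to 459.5) and 240.6 CPM (interval 226.6 to 255.2), and Nrg4 was 1348 CPM and 826.8 CPM. Rbp4 (185.9 and 116.2 CPM), Angptl4 (257.4 and 201.9 CPM) and Retn (402.3 and 350.6 CPM) were also higher in cluster 0 before depth was taken into account, by less for the last 2. The lymphocyte level of that library was 292.6 CPM for Adipoq, 158.8 CPM for Rbp4 and 418 CPM for Retn, which is above cluster 4 for all 3 and above cluster 0 for Retn, so the share of free RNA in these differences cannot be told apart. Since the clusters were made from the same nuclei, these values are a description. The WT-labelled library gave 1 adipocyte cluster of 421 nuclei.

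Depth differed between the clusters, so the values were set out within 4 bins of adipocyte depth of equal size. Over all adipocytes of the KO-labelled library, Lep went from 380.8 CPM in the shallowest bin to 697.4 CPM in the deepest and Adipoq from 493.9 to 246.7 CPM. Within each bin Lep was higher in cluster 4, from 343.3 against 622.3 CPM in the shallowest bin (196 and 27 nuclei) to 396.4 against 772.8 CPM in the deepest (54 and 169 nuclei). Nrg4 was lower in cluster 4 in each bin, at 1239 against 794.7 CPM and 1298 against 792.7 CPM in the same bins. Adipoq was lower in cluster 4 in each bin too, but in the shallowest the intervals (459 to 569.4 and 265.5 to 510.4 CPM) overlapped. Angptl4 was lower in cluster 4 in each bin, with overlapping intervals in the shallowest. Rbp4 was lower in 3 of the 4 bins and not in the shallowest (224.4 against 258.5 CPM), with overlapping intervals there and in the deepest bin. Retn did not keep its order, as it was higher in cluster 4 in 3 of the 4 bins (307.5 against 324.2 CPM in the deepest), with overlapping intervals in all 4.

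**Figure D4:**
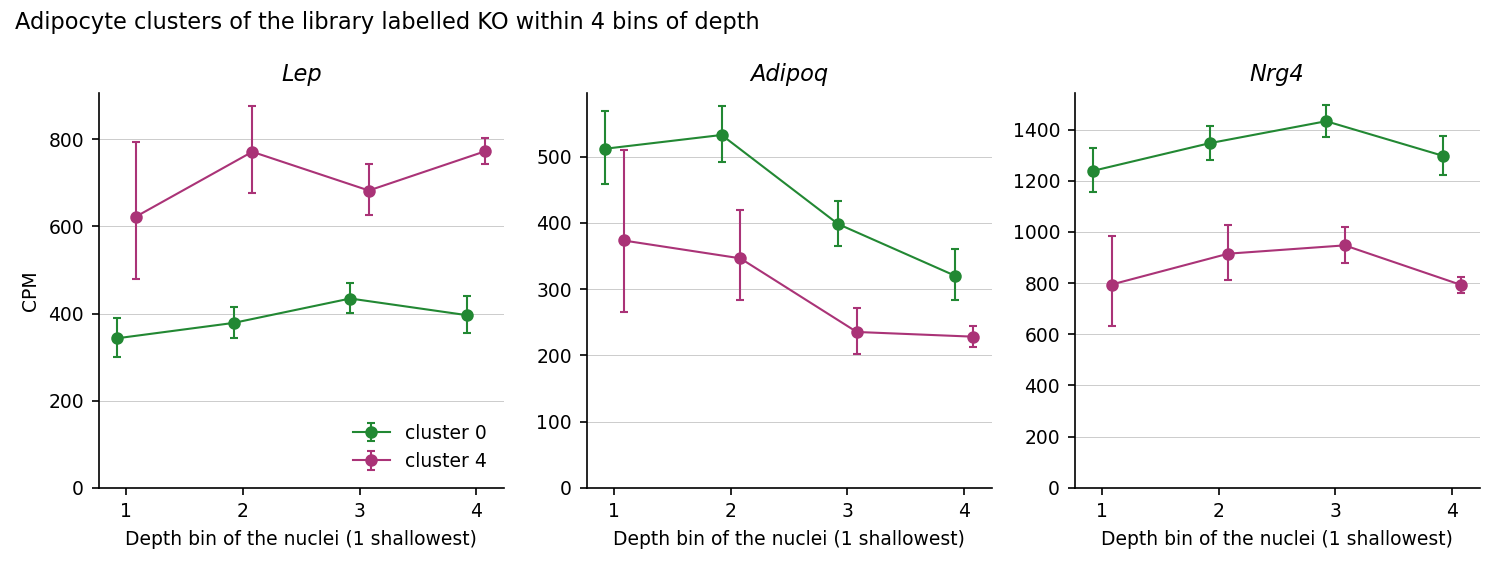
CPM of Lep, Adipoq and Nrg4 in the 2 adipocyte clusters of the KO-labelled library (cluster 0 green, cluster 4 purple) within bins of adipocyte depth, 1 the shallowest and 4 the deepest, with exact Poisson 95% intervals. Lep of cluster 4 lies above that of cluster 0 in each bin (772.8 against 396.4 CPM in the deepest), and Adipoq and Nrg4 lie below.

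Receptors and binding proteins for these factors were taken as a list of 12 genes. In adipocytes 7 had at least 50 UMIs, and of these 4 were at a ratio of at least 2 and 0 at 0.5 or below, with a median log2 ratio of 1.23, beside 25.9% and 17.6% of all genes. The median was 0.57 relative to genes of like intronic length, where 2 were at 2 or above and 1 (Cdh13) at 0.5 or below. Erbb4, a neuregulin receptor, had 2 UMIs (1.02 CPM) in adipocytes of the WT-labelled library and 1460 UMIs (168.9 CPM) in those of the KO-labelled library, a ratio of 165 with a counting interval of 45.6 to 1363, and no UMI in lymphocytes of either library. Erbb4 is among the 10 leading genes of the adipocyte cluster of the KO-labelled library, so its values are a description. Its log2 ratio of 7.37 was 4.75 relative to genes of like intronic length. Erbb3 had 5 and 2 UMIs there.

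The adiponectin receptors differed. Adipor2 was 600.6 and 1411 CPM in adipocytes (ratio 2.35, interval 2.21 to 2.5, which is a log2 ratio of 1.23 and one of 0.72 relative to genes of like intronic length, no longer at a ratio of 2), well above lymphocytes (103.5 and 117 CPM), whereas Adipor1 was 34.8 and 21.9 CPM in adipocytes, below the 67 and 46 CPM of lymphocytes. Cdh13 (T-cadherin, which binds adiponectin) was highest in endothelial nuclei, at 245 CPM (41 UMIs) and 2861 CPM. The leptin receptor Lepr was 131.5 CPM (22 UMIs) and 16.3 CPM in endothelial nuclei and 4.1 and 0.694 CPM in adipocytes, and 62 of its UMIs lay in unnamed clusters. The apelin receptor Aplnr was likewise endothelial, with 143.4 CPM (24 UMIs) and 77.5 CPM. Itgb1 (ratio 1.84), Sdc4 (1.13) and Cap1 (4.07, interval 2.62 to 6.65), a proposed resistin receptor, made up the rest of the measured list. For Cap1 and Itgb1 the lymphocyte level was above that of adipocytes in both libraries and higher in the KO-labelled one (51.9 and 171.4 CPM of Cap1, beside 10.8 and 43.7 CPM in adipocytes). The retinol-binding protein receptors Stra6 and Stra6l had 6 and 1 UMIs in adipocytes.

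**Figure D5:**
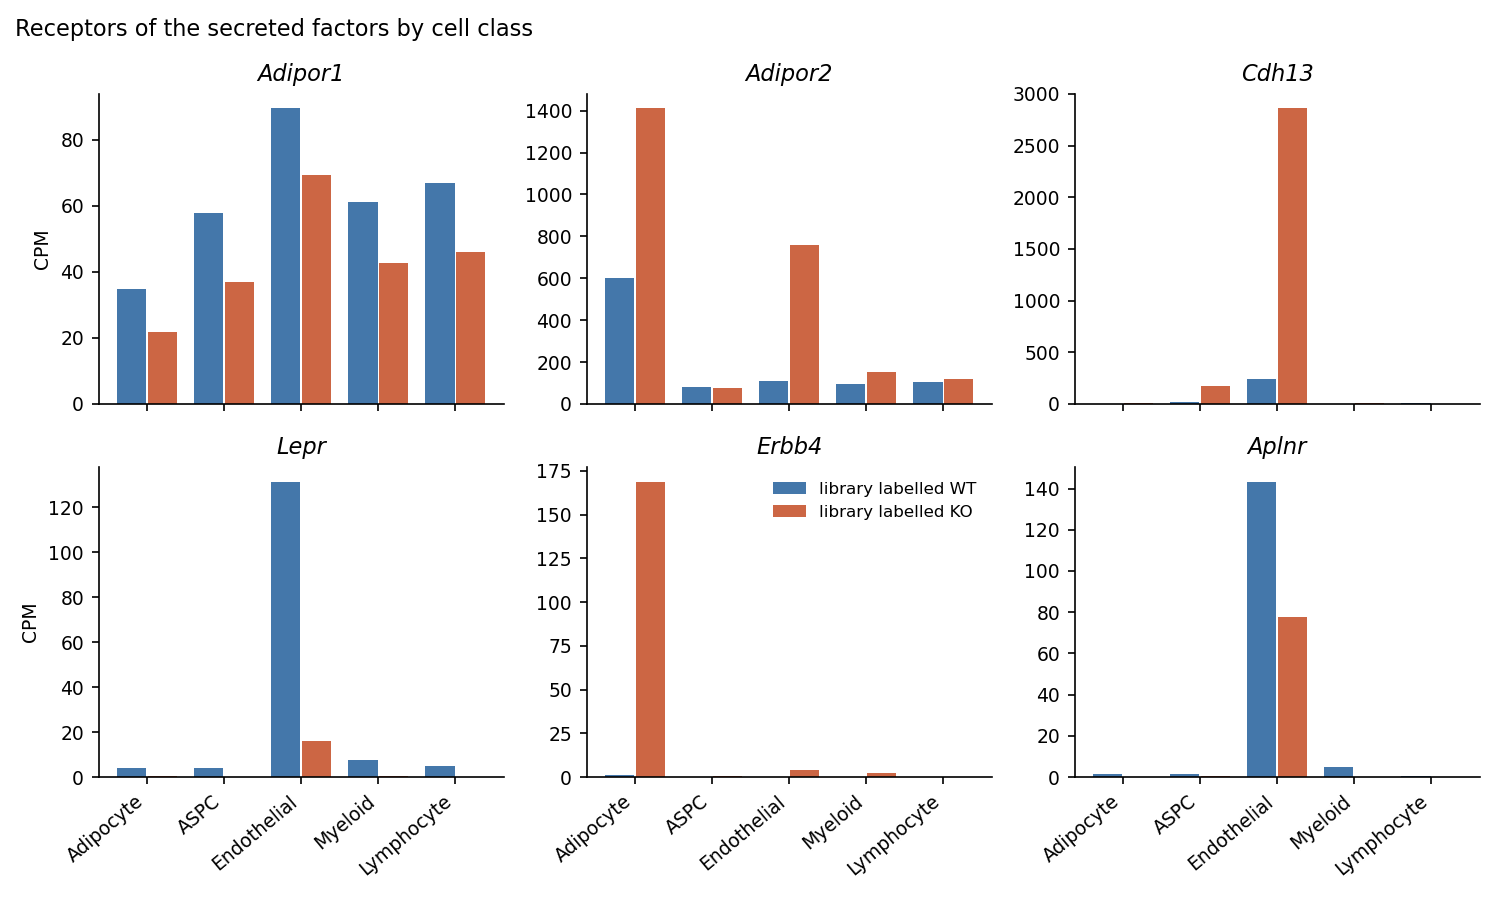
CPM of 6 receptors in 5 cell classes of the WT-labelled library (blue bars) and the KO-labelled library (orange bars), linear axes from 0. Adipor2 and Erbb4 are highest in adipocytes, at 1411 and 168.9 CPM in the KO-labelled library, and Cdh13, Lepr and Aplnr are highest in endothelial nuclei among these 5 classes.

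The lipoprotein lipase axis on which Angptl4 acts was a list of 7 genes, all with at least 50 adipocyte UMIs. Of these 1 was at a ratio of at least 2 and 2 at 0.5 or below, beside 25.9% and 17.6% of all genes, with a median log2 ratio of −0.86. The median was −0.66 with 0 at 0.5 or below under TMM scaling, and −0.01 with 1 such gene relative to genes of like intronic length. Without mitochondrial genes and Malat1 in the total, the median was −1.11 with 4 of the 7 genes at 0.5 or below. Lpl, lipoprotein lipase itself, was 3202 CPM and 1567 CPM in adipocytes (ratio 0.489, interval 0.475 to 0.504), beside 594.8 and 622.8 CPM in lymphocytes, so it was lower in the same library as its inhibitor Angptl4. The Lpl log2 ratio of −1.03 was −0.90 relative to genes of like intronic length, no longer at a ratio of 0.5 or below. Angptl8, a secreted relative of Angptl4, was 41 and 20.1 CPM (ratio 0.491), and its log2 ratio of −1.02 was −0.01 relative to genes of like intronic length. The lipoprotein receptor Vldlr had a ratio of 0.551, Lipe 1.34 and Lmf1, a lipase maturation factor, 1.26. Gpihbp1, which anchors lipoprotein lipase to the vessel wall, lay in endothelial nuclei at 824.7 and 612.2 CPM.

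Other secreted adipocyte factors were a list of 20 genes, of which 12 had at least 50 adipocyte UMIs. Of these 8 were at a ratio of at least 2 and 1 at 0.5 or below, beside 25.9% and 17.6% of all genes (median log2 ratio 1.32). The counts were the same under TMM scaling and relative to genes of like intronic length, and 6 and 1 without mitochondrial genes and Malat1. Cfd (adipsin, a complement protease) was 208.9 and 709.9 CPM (ratio 3.4, interval 3.07 to 3.77), beside 131 and 455.6 CPM in lymphocytes, so its lymphocyte level moved in the same way. Nampt (2.75), Sfrp5 (3.3), C1qtnf1 (3.77), Angptl2 (2.23), Ccdc3 (4.84) and Bmp8b (11.3, from 1 and 50 UMIs, interval 1.94 to 455.1) were also at 2 or above. C1qtnf1 was higher in ASPCs (48.4 and 145.2 CPM) than in adipocytes (5.12 and 19.3 CPM) and differed there in the same direction. Angptl2 was also higher in ASPCs (166.6 and 128.3 CPM, beside 36.9 and 82.4 CPM in adipocytes), where it went the other way. How much of their adipocyte counts is RNA from ASPCs was not tested. Bmp8b (5.79 against 12.5 CPM) and Sfrp5 (13.5 against 12.5 CPM) did not stand above the lymphocytes of the KO-labelled library, where each had 3 UMIs. Metrnl was at 0.407 (interval 0.273 to 0.615). Its 20.5 and 8.33 CPM in adipocytes lay below the 24.4 and 54.3 CPM of lymphocytes, which went the other way. Vegfa, the vascular growth factor, was 818.8 and 507.8 CPM (ratio 0.62, interval 0.586 to 0.657), and Rarres2 (chemerin, 0.93) and Itih5 (1.04) were within counting error of 1. Relative to genes of like intronic length these last 2 moved apart, to log2 ratios of 0.74 for Rarres2 and −0.84 for Itih5. Lcn2 had 33 UMIs in adipocytes and 65 in lymphocytes, and C1qtnf2 had 3 in adipocytes and 67 in ASPCs.

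Proteins that fold, process or sort adiponectin and other disulfide-linked hormones were a list of 10 symbols, 9 of them in the files. In adipocytes 3 of the 9 were at a ratio of at least 2 and 1 at 0.5 or below, beside 25.9% and 17.6% of all genes (median log2 ratio −0.17, which was 0.04 under TMM scaling and 0.41 relative to genes of like intronic length). The counts were 2 and 2 without mitochondrial genes and Malat1, 3 and 0 under TMM scaling, and 1 and 0 relative to genes of like intronic length, where Pcsk6 alone stayed past 2. Erp44, which retains adiponectin in the secretory pathway, had a ratio of 2.14 (interval 1.53 to 3.1), and its partner Ero1l 0.966 (interval 0.641 to 1.5). Pcsk6, a proprotein convertase, was 3.07 and 56 CPM (ratio 18.2, interval 8.31 to 49.9, from 6 and 484 UMIs), Sort1, a sorting receptor, 79.9 and 199.3 CPM (ratio 2.49), and the chaperone Hspa5 187.9 and 90.8 CPM (ratio 0.483). Pcsk6 was higher in ASPCs than in adipocytes of both libraries, at 72.6 and 326.7 CPM (54 and 1080 UMIs), and differed there in the same direction. How much of its adipocyte count is RNA from ASPCs was not tested. Relative to genes of like intronic length the log2 ratio of Hspa5 went from −1.05 to −0.04, that of Erp44 from 1.10 to 0.47 and that of Sort1 from 1.32 to 0.76. Erp44 (67.8 and 117 CPM) and Hspa5 (375.5 and 146.3 CPM) were higher in lymphocytes than in adipocytes of both libraries and differed there in the same direction. Furin was at 0.57, and Gstk1, P4hb and Pdia3 were within counting error of 1. Furin, P4hb, Pdia3 and Ero1l were also higher in lymphocytes than in adipocytes of both libraries, and Gstk1 was not. Furin, for one, was 24.6 and 14 CPM in adipocytes beside 30.6 and 41.8 CPM in lymphocytes.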

How the data were processed

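For 1 library of each genotype the authors deposited a matrix of UMI counts, not normalized. Its header names Cell Ranger 6.1.1. The submitters' processing notes name mm10 and Seurat 4. Whether reads in introns were counted is not given in the sources used here. Each table held 5000 barcodes, with 9376351 UMIs in the WT-labelled library and 19655049 in the KO-labelled library. Barcodes with at least 500 genes and at most 5% mitochondrial UMIs were kept (3649 and 2944). Doublets were scored with Scrublet in scanpy 1.11.5. Its threshold removed 92 nuclei (3.12%) of the KO-labelled library and marked 0 in the WT-labelled library, where the rule for a rate under 0.5% removed the top 4% (146).

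Both libraries were clustered together in R 4.3.3 with Seurat 5.3.0 (2000 variable genes without the 7 genes, 20 principal components, 20 neighbours, resolution 0.5). A cluster took a class name when at least 3 of its markers, and 3 more than of any other class, were found in at least 5% of nuclei at 2 times the mean CPM of the other clusters. The 10 kept barcodes found in both libraries were left in. Counts were summed per class and library. Sums have exact Poisson, shares exact Clopper-Pearson and ratios exact conditional binomial 95% intervals (scipy 1.17.1), which cover counting error only. The depth per class sets their width, and 3 UMIs are the limit that a count of 0 allows. The calculation was tested on simulated data.

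The 7 genes, the gene lists and the markers were chosen with earlier results of these data known. Genes were named by this rule: the 7 genes, list genes with at least 50 UMIs in the class richest in them, and for each of the 7 with enough UMIs the 3 genes of highest Pearson correlation among genes with at least 200 UMIs. List genes under that number, named with their UMIs, and the leading genes of the 2 adipocyte clusters were added after their values were seen. Intronic lengths came from GENCODE vM1 (lengths only, of an older build, in which Nrg4 is longer than in RefSeq), loci, spans and promoters from RefSeq tables of GRCm38.p6. Alternatives were edgeR 4.0.16 TMM scaling, totals without mitochondrial genes and Malat1, doublets kept, at least 1000 genes, separate clustering, resolution 1, classes without clustering, centring on intronic length, centring on gene span (found for 93.8% of 11351 genes) and adipocytes of like depth (both chosen after seeing the data), subtraction of free RNA, other measures of free RNA, other gene minimums and thinning to 500 UMIs. Unnamed clusters held 245 and 36 nuclei and were not compared between libraries. Single values of 2 list genes are not reported here, and the counts over their lists include them.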

Additional observations from a re-analysis of the deposited data

Results flagged for a closer look

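Barcodes with under 500 genes, which entered no class, also held these transcripts. There were 447 such barcodes in the WT-labelled library and 1448 in the KO-labelled library. Their CPM was above that of lymphocytes beyond counting error for 4 of the 7 genes in the WT-labelled library, by 1.72 times for Lep, 1.39 times for Adipoq, 1.58 times for Rbp4 and 1.56 times for Angptl4. In the KO-labelled library it was above for 6 of the 7, by 3.74 times for Lep, 3.44 times for Adipoq, 3.28 times for Retn, 3.49 times for Rbp4, 2.66 times for Nrg4 and 3.05 times for Angptl4. Retn reached 1370 CPM and Adipoq 1006 CPM there, above the 374.8 and 333.4 CPM of adipocytes of that library. Per barcode this was 1.37 UMIs of Retn and 1.01 of Adipoq, beside 3.62 and 3.22 per adipocyte nucleus. The share of all genes above lymphocytes in these barcodes was not taken. The counts of 4 and 6 of the 7 genes therefore do not set them apart from other genes. What these barcodes hold was not tested.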

How the results depend on the processing

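Over 11 alternatives, of which centring on genes of like span in RefSeq and adipocytes of like depth were chosen after seeing the data, the adipocyte ratio of Lep lay between 2.09 and 3.81, that of Rbp4 between 1.33 and 2.54, that of Nrg4 between 2.62 and 6.04 and that of Angptl4 between 0.324 and 0.683, none crossing 1. Adipoq lay between 0.806 and 1.45 (above 1 in 4 of 11) and Retn between 0.91 and 1.95 (above 1 in 8 of 11). Centring on intronic length gave the upper value of these ranges for Lep, Adipoq and Angptl4 and the lower for Nrg4, centring on span the upper for Retn, and adipocytes of like depth the lower for Lep and the upper for Rbp4. Free RNA was not subtracted among adipocytes of like depth. By either centring 0 genes were at a ratio of 0.5 or below, in place of 1, and 3 at 2 or above, in place of 2, and the latter count was also 3 among adipocytes of like depth. Compared by UMIs per nucleus, 6 genes were at least 2 times the lymphocyte level in the KO-labelled library, in place of 3 by CPM. This follows from lymphocytes having fewer UMIs per nucleus. The share of all genes past 2 by this measure was not taken, so the count does not set these genes apart from others. With barcodes under 500 genes as the measure of free RNA the counts were 5 and 2, in place of 6 and 3, and TMM scaling gave 4 in the KO-labelled library. The other counts under the alternatives did not move. With no minimum above 1 UMI, 54.8% of all genes were past a ratio of 2 in either direction, in place of 43.5%. Thinning to 500 UMIs lowered each share of adipocytes with a UMI, for Nrg4 to 9.33% and 40.6%. No paired analysis was possible because each group had 1 library. The spread between mice, pooled here, cannot be seen, and genotype, depth and library preparation cannot be told apart.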
